A study of Mus musculus with 2 samples.

Results

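Glycolysis and hypoxia genes are taken here as 32 genes that carry glucose into the cell, break it down to lactate, or respond to low oxygen. They were found by symbol in the gene list of the series, where 33 of 31053 rows carry these symbols. Aldoa has 2 rows, and the one with 35236 UMIs over all barcodes was used, since the other held 2. Single cells of mouse spinal cord were taken 5 days after injury, from cord treated with an HDAC3 inhibitor (1 library) and from cord given vehicle (1 library). The inhibitor, its dose, the strain, sex and age of the mice and the number of animals behind each library are not given in the sources used here. HDAC3 is a histone deacetylase that works in corepressor complexes at genes. The transcripts were read with the 10x Genomics 3′ version 3 kit, which tags each captured molecule with a unique molecular identifier (UMI).

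Glycolysis begins when glucose enters through carriers of the SLC2A family and is phosphorylated by a hexokinase, which traps it in the cell. Phosphofructokinase then makes the committed step, a chain of shared enzymes from aldolase to pyruvate kinase yields ATP and pyruvate, and lactate dehydrogenase interconverts pyruvate and lactate, which crosses the membrane on monocarboxylate carriers of the SLC16A family. Several steps have isoenzymes that differ between cell types, and in nervous tissue glia and endothelium are known to pass lactate and glucose on to other cells. Under low oxygen the prolyl hydroxylases that mark HIF-1α for destruction slow down, HIF-1α accumulates, and with its partner ARNT it raises many glycolytic genes together with BNIP3, HILPDA, adrenomedullin and others. HIF-1α is controlled mainly as a protein, so the Hif1a transcript is not a readout of its activity.

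The libraries held 3423 and 2523 barcodes and 38957752 and 29726813 UMIs, given with the HDAC3 inhibitor library ahead of vehicle, an order kept for all pairs of values below. After filtering, 2954 and 2164 cells were kept, with medians of 9701.5 and 10245 UMIs and 3.39% and 3.62% mitochondrial UMIs. They formed 27 clusters. Of these, 24 were named from marker genes into 14 classes and 3, with 258 cells in all, stayed unnamed. None of the 32 genes served as a marker, and 5115 of the 5118 kept cells (99.9%) kept their class when clustering left these genes out. Levels are UMIs of a gene summed over the cells of a class per 1000000 UMIs of that class (CPM), with exact Poisson 95% intervals. Because the kit counts molecules at their 3′ ends, levels were not divided by gene length. With a single library on each side no replicate check exists, so no test was made. The intervals cover counting error only, the libraries and not the conditions are compared, and treatment and library cannot be told apart. Of the barcodes, 10 occur in both libraries, and 5 of these were kept in each. As a measure of RNA from other cells, the 11 neutrophil markers summed to 78.5 and 158 CPM in oligodendrocyte-like cells, against 399388 and 433048 CPM in neutrophil-like cells. Since these markers fill so much of the total in neutrophil-like cells, the CPM of every other gene is lowered there.

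Astrocyte-like cells led the list: 16 of the 32 genes were highest there by the mean of both libraries. Neutrophil-like cells were highest for 5, microglia-like and endothelial-like cells for 3 each, Schwann-like cells for 2, and oligodendrocyte-like, monocyte/macrophage-like and fibroblast-like cells for 1 each. The astrocyte-like class is thin, with 30 and 15 cells of low depth (medians of 3033 and 2399 UMIs) and 10.1% and 9.38% mitochondrial UMIs. For 17 of the 32 genes the intervals of the highest class and the next overlapped in at least 1 library. Among the genes highest in astrocyte-like cells these were Hk1, Pfkl, Pfkp, Aldoa, Pgam1, Pkm, Ldha, Hif1a and Egln3. Egln3 was at 15.5 and 25.3 CPM there, no higher than the 15.5 and 37.9 CPM that 3 UMIs give. Of the 448 pairs of a gene and a class, 17 had no UMI in either library. Across the 243 pairs with at least 20 UMIs in each library, the levels of the libraries ranked alike (Spearman's rho 0.979, a description across gene and class pairs that share depth and cells). In 171 of those 243 pairs neither library exceeded the other by 25% or more.

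**Figure D1:**
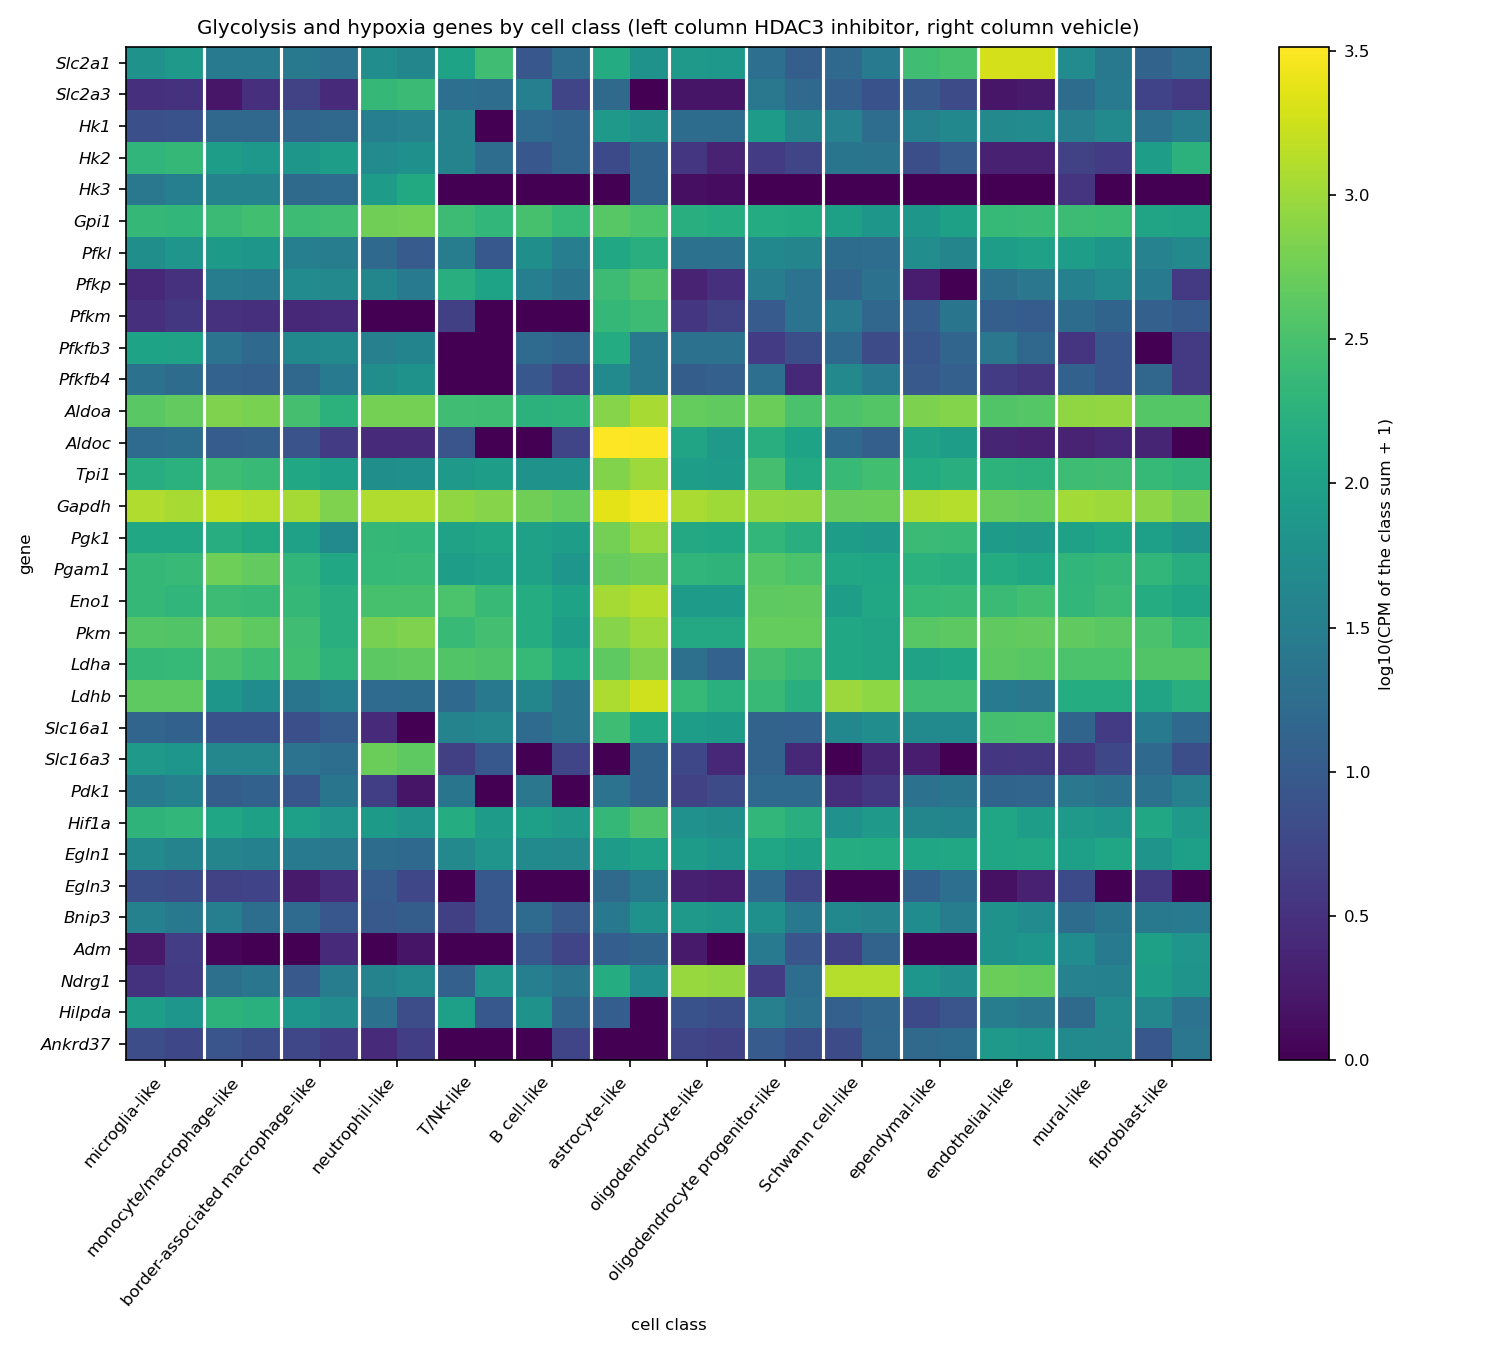
Levels of the 32 genes in the 14 cell classes. Rows are genes in pathway order, each class has a column for the HDAC3 inhibitor library and one for the vehicle library, and colour gives log10 of CPM plus 1. The columns of a class look alike, Slc2a1 stands out in endothelial-like cells (1932 and 1922 CPM) and Aldoc in astrocyte-like cells (3267 and 3156 CPM).

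Glucose carriers divided sharply between classes. Slc2a1, which encodes the carrier GLUT1 of the blood-brain and blood-spinal cord barriers, stood at 1932 and 1922 CPM in endothelial-like cells, far above the 268 and 312 CPM of ependymal-like cells, the next class. Microglia-like cells held 63.9 and 77.7 CPM of it, and monocyte/macrophage-like cells 27.6 and 28.1 CPM. Slc2a3, which encodes the high-affinity carrier GLUT3, was a neutrophil gene here, at 218 and 251 CPM against 16.5 and 28.3 CPM in mural-like cells, the next class. Of the UMIs of both carriers, Slc2a3 took 80.9% and 86.4% in neutrophil-like cells (Clopper-Pearson 95% intervals 76.1% to 85.1% and 83.1% to 89.3%), against 0.0339% and 0.0420% in endothelial-like cells.

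Hexokinases split the myeloid cells from each other and from the rest. Microglia-like cells used Hk2, the inducible hexokinase that can sit on mitochondria, at 202 and 217 CPM and for 86.8% and 84.9% of their hexokinase UMIs. Fibroblast-like cells were next, at 92.9 and 180 CPM from few cells, with intervals that overlap those of microglia-like cells in vehicle. Hk3, a hexokinase of granulocytes and macrophages, was highest in neutrophil-like cells at 84.7 and 135 CPM. Monocyte/macrophage-like cells followed at 35.7 and 36.4 CPM, then microglia-like cells at 24.4 and 31.9 CPM. No Hk3 UMI was found in endothelial-like cells, which allows up to 0.655 and 0.807 CPM, and 6 more classes had none in either library. Hk1, the housekeeping form that predominates in brain, made up 97.5% and 97.8% of hexokinase UMIs in endothelial-like cells and 2.68% and 2.61% in microglia-like cells. It was highest in astrocyte-like cells, at 77.3 and 63.1 CPM, with intervals that overlap those of oligodendrocyte progenitor-like cells. Gpi1, the isomerase that follows, was more even, from 571 and 608 CPM in neutrophil-like cells down to ependymal-like cells, the lowest class.

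The committed step showed 3 patterns. Pfkl, the liver-type phosphofructokinase, gave 93.9% and 93.2% of that family's UMIs in microglia-like cells and 72.2% and 71.0% in monocyte/macrophage-like cells. Pfkp, the platelet type, gave 73.0% and 75.0% in neutrophil-like cells, from only 63 and 64 UMIs of the family. In monocyte/macrophage-like cells Pfkp took 52.6% and 45.1% when the clusters of that class were weighted alike. Astrocyte-like cells held all 3 forms, with Pfkp at 43.1% and 45% and Pfkm, the muscle type, at 36.2% and 33.3%. Pfkm was low elsewhere and had no UMI in neutrophil-like cells of either library. Pfkfb3 and Pfkfb4 make fructose 2,6-bisphosphate, the activator of phosphofructokinase. Pfkfb3 was highest in microglia-like cells at 108 and 104 CPM by the mean of both libraries, whereas astrocyte-like cells gave 144 and 25.3 CPM from few UMIs. Pfkfb4 was highest in neutrophil-like cells, at 54.1 and 61.8 CPM, with Schwann-like cells next at 44.2 and 27.9 CPM and intervals that overlap in the HDAC3 inhibitor library.

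**Figure D2:**
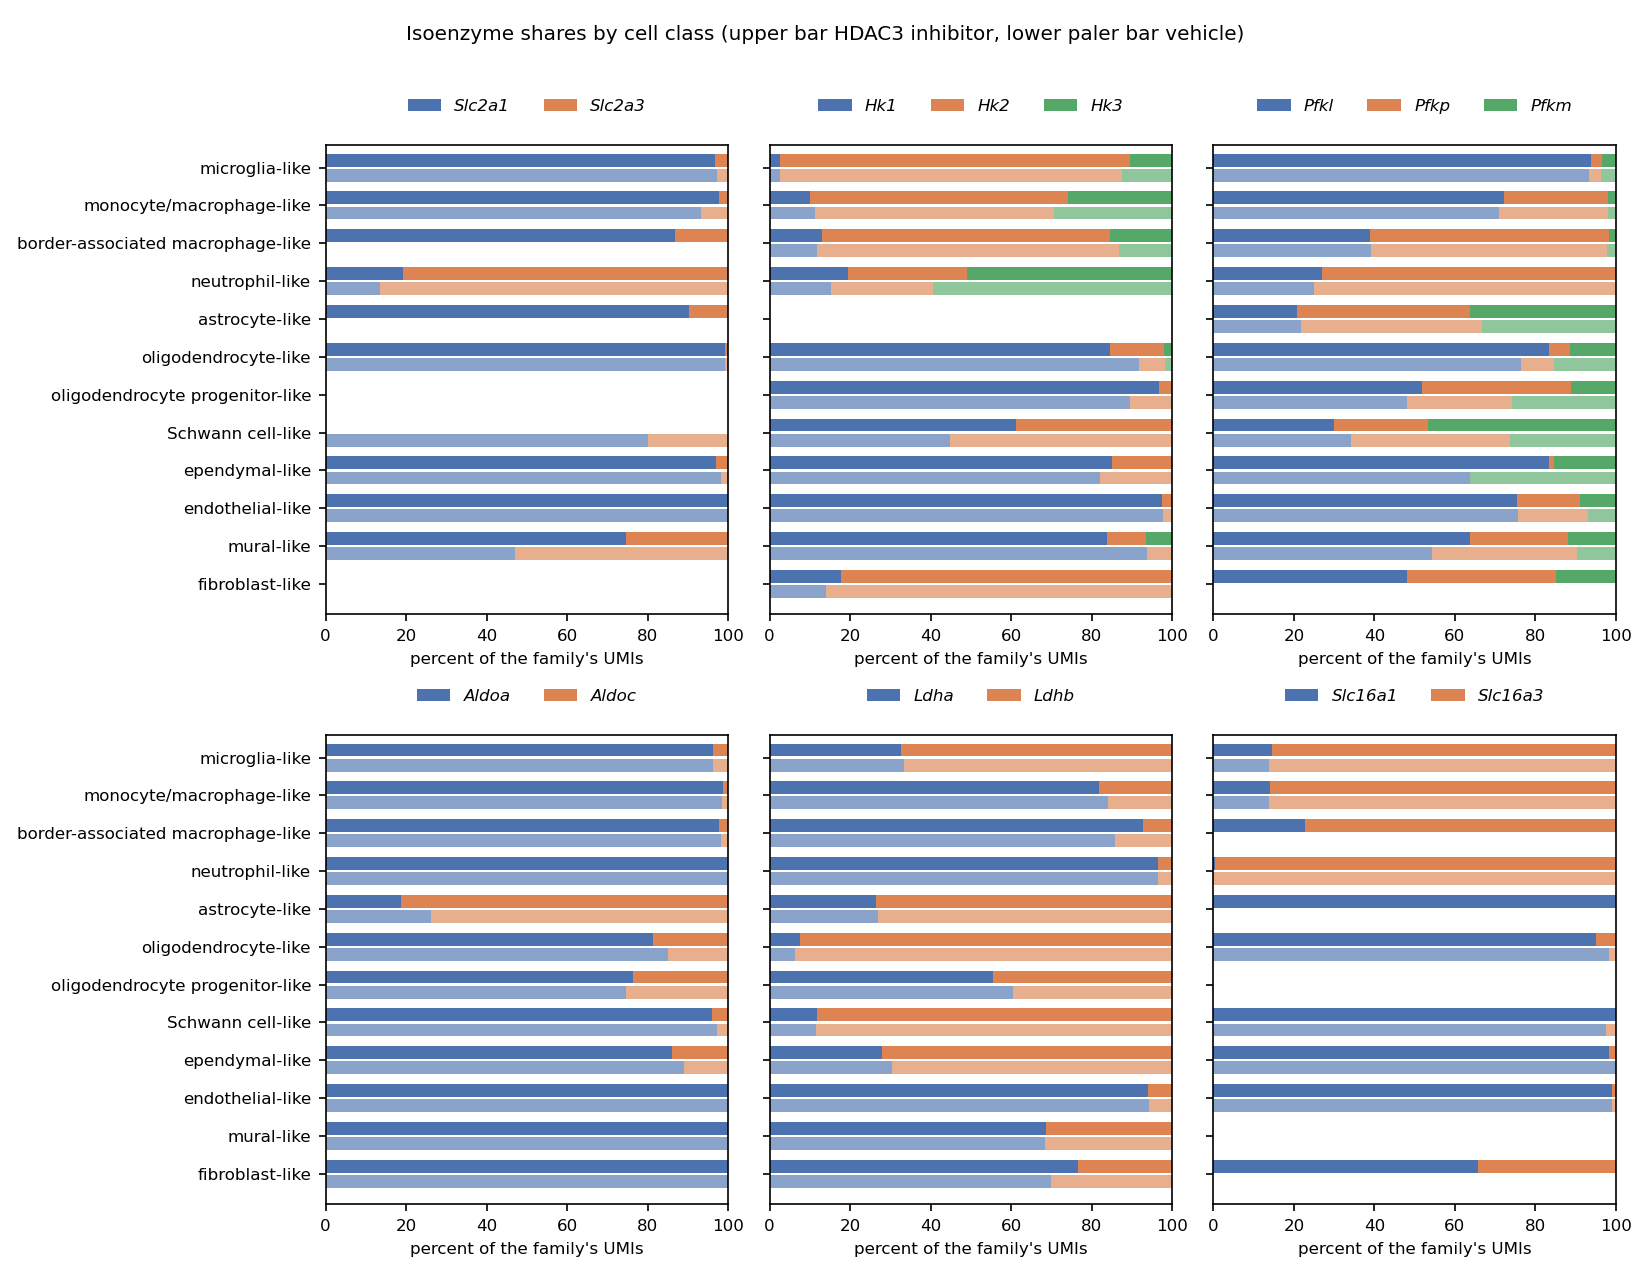
Isoenzyme shares by cell class. Each panel is a gene family, each bar a library of a class (upper bar HDAC3 inhibitor, lower paler bar vehicle), and the segments give each gene's percent of the family's UMIs; bars with under 20 UMIs of the family are left blank, and T/NK-like and B cell-like cells are not drawn. Ldhb fills 92.4% and 93.6% of the lactate dehydrogenase bar in oligodendrocyte-like cells and 3.53% and 3.58% in neutrophil-like cells.

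The shared enzymes from aldolase to pyruvate kinase were present in every class. Gapdh, which oxidises glyceraldehyde 3-phosphate, ranged from 2365 and 2815 CPM in astrocyte-like cells to 519 and 487 CPM in endothelial-like cells, the lowest class. Pgk1, which makes the first ATP of the pathway, stood at 608 and 934 CPM in astrocyte-like cells and 245 and 233 CPM in ependymal-like cells. Tpi1, which interconverts the triose phosphates, was at 696 and 997 CPM in astrocyte-like cells and only 55.9 and 57.2 CPM in neutrophil-like cells. Eno1, an enolase, was highest in astrocyte-like cells (1103 and 1275 CPM), ahead of oligodendrocyte progenitor-like cells (435 and 453 CPM). A near copy of Eno1, Eno1b, holds 108 UMIs against 15458, and the treatment of reads that match both has no statement in the labels or file headers. For Aldoa, Pgam1 (a phosphoglycerate mutase) and Pkm (pyruvate kinase) the interval in astrocyte-like cells overlapped that of the next class, for Pkm in the HDAC3 inhibitor library alone. Those next classes were mural-like cells for Aldoa (854 and 874 CPM), monocyte/macrophage-like cells for Pgam1 (552 and 463 CPM) and neutrophil-like cells for Pkm (624 and 677 CPM).

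Over the 14 classes, 9 enzymes of the common steps (Gpi1, Aldoa, Tpi1, Gapdh, Pgk1, Pgam1, Eno1, Pkm and Ldha) had a median pairwise Spearman correlation of 0.431 and 0.479 over their 36 pairs. Over all 496 pairs of the 32 genes the medians were 0.117 and 0.124. These are descriptions over classes that share libraries and differ in depth. Aldoc, the brain aldolase, was at 3267 and 3156 CPM in astrocyte-like cells and gave 81.2% and 73.7% of aldolase UMIs there. It is also among the 10 genes that lead the astrocyte-like cluster, so that level describes the cluster. The next class was oligodendrocyte progenitor-like cells, at 166 and 107 CPM, and in endothelial-like cells Aldoc was at 1.31 and 1.08 CPM.

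Lactate dehydrogenase also divided the classes. Ldha encodes the subunit that favours making lactate, and Ldhb the heart-type subunit that favours turning lactate to pyruvate. Ldhb took 92.4% and 93.6% of the family's UMIs in oligodendrocyte-like cells, 88.1% and 88.3% in Schwann-like cells, 73.7% and 73.0% in astrocyte-like cells and 67.3% and 66.5% in microglia-like cells. It took 18.2% and 16.0% in monocyte/macrophage-like cells, 5.96% and 5.64% in endothelial-like cells and 3.53% and 3.58% in neutrophil-like cells. Microglia-like and monocyte/macrophage-like cells thus lay on opposite sides in both libraries, with intervals far apart. Per gene, Ldhb was at 444 and 445 CPM in microglia-like cells, whereas monocyte/macrophage-like cells held 71.8 and 50.2 CPM. Ldha was at 216 and 224 CPM in the former and 323 and 264 CPM in the latter. In oligodendrocyte-like cells Ldha was nearly missing, at 18.6 and 11.6 CPM.

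Lactate carriers divided along another line. Slc16a3, which encodes the exporter MCT4 of glycolytic cells, was at 535 and 437 CPM in neutrophil-like cells. Microglia-like cells held 76.2 and 70.2 CPM, and monocyte/macrophage-like cells 41.2 and 41.3 CPM. It gave 99.7% and 100% of the pair's UMIs in neutrophil-like cells and 85.5% and 86.2% in microglia-like cells. Slc16a1, which encodes the carrier MCT1, was at 297 and 307 CPM in endothelial-like cells. Astrocyte-like cells were next at 263 and 126 CPM, with intervals that overlap in at least 1 library. In oligodendrocyte-like cells Slc16a1 was at 92.1 and 80.7 CPM. It was at 1.75 CPM in neutrophil-like cells of the HDAC3 inhibitor library and had no UMI there in vehicle. Pdk1, a kinase that shuts pyruvate out of the mitochondrial pathway, was low in every class and highest in microglia-like cells at 26.3 and 34.0 CPM. Fibroblast-like cells were next at 20.2 and 32.5 CPM, with intervals that overlap in at least 1 library.

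The oxygen-sensing genes were broadly expressed. Hif1a gave 216 and 341 CPM in astrocyte-like cells, with an interval that overlaps that of microglia-like cells (193 and 209 CPM) in the HDAC3 inhibitor library. In monocyte/macrophage-like cells it was at 114 and 98.7 CPM. Egln1, the main prolyl hydroxylase that marks HIF-1α, ran in a different order, with Schwann-like (147 and 146 CPM) and endothelial-like cells (120 and 121 CPM) on top and neutrophil-like cells lowest (16.6 and 14.9 CPM). Egln3, a hydroxylase that HIF-1α itself raises, stayed at or below 25.3 CPM in every class and library.

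Further HIF targets were spread over classes. Bnip3, a mitochondrial protein that marks mitochondria for removal, was highest in oligodendrocyte-like cells (78.5 and 69.6 CPM). Hilpda, a lipid droplet protein that holds back the lipase ATGL, was highest in monocyte/macrophage-like cells (184 and 168 CPM), ahead of microglia-like cells (89.8 and 68.1 CPM). Ankrd37, an ankyrin repeat protein, was highest in endothelial-like cells (78.2 and 68.6 CPM). Mural-like cells were next (46.9 and 44.0 CPM), with intervals that overlap in at least 1 library. Adm, the vasodilator peptide adrenomedullin, was highest by the mean of both libraries in fibroblast-like cells at 99.6 and 68.0 CPM, next to endothelial-like cells at 60.3 and 69.9 CPM with intervals that overlap in vehicle. Monocyte/macrophage-like cells held 0.154 CPM of it and no UMI in vehicle. Ndrg1, whose loss causes a neuropathy of myelin, was highest in Schwann-like cells (1307 and 1342 CPM), then oligodendrocyte-like cells (923 and 889 CPM), and stood at 2.27 and 3.19 CPM in microglia-like cells.

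HIF binds a short core sequence, ACGTG or GCGTG. The 250 bases upstream of every listed start of a gene were searched for it on both strands (RefSeq, GRCm38.p6). Of the 30 of 32 genes with a sequence in the table, 28 (93.3%) held at least 1 copy ahead of any start. This compares with 41.5% of all 27025 genes in the table and 60.4% of 10130 genes with at least 100 UMIs in the kept cells. The shares are not matched for starts: the 30 genes had 44 stretches, and all 27025 genes had 32851. The list was chosen to include known HIF targets, so its higher share is not independent evidence. A match is a description of the letters, not a site. Shown are 4 of the 5 genes that were at least 25% higher in 1 library, the same one, in more than 1 class (compared further on), as the stretch with the most copies where a gene has several starts. Sequences run 5′ to 3′ on the gene's strand and end at the base before its RefSeq start, and capitals mark the core, or its reverse complement CACGT or CACGC. Copies in CACGTG overlap, since that hexamer reads the same on both strands.
Bnip3: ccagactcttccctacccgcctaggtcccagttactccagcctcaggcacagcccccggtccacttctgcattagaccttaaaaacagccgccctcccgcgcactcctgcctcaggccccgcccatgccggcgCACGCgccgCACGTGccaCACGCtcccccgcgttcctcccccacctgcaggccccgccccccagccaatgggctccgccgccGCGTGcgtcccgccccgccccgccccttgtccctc
Pfkfb3: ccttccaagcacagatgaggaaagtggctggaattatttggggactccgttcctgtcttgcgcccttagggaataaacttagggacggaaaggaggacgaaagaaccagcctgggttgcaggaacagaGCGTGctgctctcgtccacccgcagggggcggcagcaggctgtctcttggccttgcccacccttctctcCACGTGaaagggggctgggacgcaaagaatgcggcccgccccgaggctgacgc
Ldhb: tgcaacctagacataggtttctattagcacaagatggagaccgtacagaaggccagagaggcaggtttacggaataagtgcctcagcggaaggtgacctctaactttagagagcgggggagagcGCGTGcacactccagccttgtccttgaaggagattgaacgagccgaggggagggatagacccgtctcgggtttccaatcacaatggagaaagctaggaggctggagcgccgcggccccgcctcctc
Hk3: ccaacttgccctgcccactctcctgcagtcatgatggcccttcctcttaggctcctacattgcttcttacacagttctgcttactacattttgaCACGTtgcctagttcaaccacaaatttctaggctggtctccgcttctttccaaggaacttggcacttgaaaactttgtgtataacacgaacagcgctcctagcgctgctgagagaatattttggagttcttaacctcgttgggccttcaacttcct
The Bnip3 stretch (chr7:138909507-138909756, minus strand) holds 5 copies, 2 of which overlap. The Pfkfb3 stretch (chr2:11502091-11502340, minus strand), which lies inside the gene ahead of its inner start, holds 3 with an overlapping pair, and its outer start has 1. The Ldhb stretch (chr6:142507958-142508207, minus strand) and the Hk3 stretch (chr13:55021386-55021635, minus strand) hold 1 each. Hilpda, the remaining gene, has 3 copies ahead of 1 start and 0 ahead of the other, and its stretch is not printed because it runs over an annotated UTR exon of the gene's other transcript.

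Clusters inside a class were compared next. They were drawn from the same cells' expression, so these differences are descriptions, given where a gene with at least 100 UMIs differed by at least 25% the same way in both libraries. Neutrophil-like cells fell into a cluster led by the granule genes Ngp, Camp and Ltf (75 and 122 cells) and one led by Retnlg, Il1b and Mmp9 (101 and 91 cells). From the former to the latter, Slc16a3 went from 322 and 268 CPM to 1159 and 1052 CPM. Slc2a3 went from 146 and 185 CPM to 429 and 492 CPM, and Hif1a from 45.7 and 38.6 CPM to 182 and 159 CPM. Slc2a1, Pfkfb3, Pfkfb4, Pkm and Ndrg1 were higher in that cluster too. Ldha, from 519 and 514 CPM to 168 and 199 CPM, went the other way with Tpi1, Pgk1 and Pgam1. In all 8 of 18 genes were higher and 4 lower in the Il1b-led cluster, which is the share of all 2450 genes (44.6% and 23.0%). That cluster is shallower, with medians of 2698 and 3845 UMIs against 9673 and 10081.5.

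Microglia-like cells held a larger cluster led by Ccl4 and Il1a among others (375 and 388 cells) and a smaller one led by Spp1, Igf1 and Cd5l (81 and 95 cells). Gpi1, Aldoa, Tpi1, Gapdh, Pgk1, Pgam1, Eno1, Pkm and Ldha were higher in the Spp1-led cluster. Aldoa went from 328 and 353 CPM to 826 and 945 CPM, and Pkm from 279 and 289 CPM to 831 and 695 CPM. Bnip3 went from 26.7 and 20.7 CPM to 70.9 and 43.6 CPM, and Hilpda from 75.4 and 57.7 CPM to 160 and 113 CPM. Lower there were Hk2, which went from 223 and 245 CPM to 103 and 96.9 CPM, and Pfkfb3 from 120 and 123 CPM to 49.9 and 25 CPM. Ldhb, Slc2a1, Slc16a1, Pfkfb4 and Aldoc were lower too. In all 13 of 24 genes were higher, beside 9.55% of 7351 genes, and 7 were lower, a smaller share than the 41.6% of all genes. The Spp1-led cluster also carried more monocyte/macrophage markers (7914 and 9375 CPM summed over 10 genes, against 1410.0 and 1572 CPM) and fewer UMIs per cell (medians of 4752 and 4062 against 10943 and 12550). Their part in the difference was not tested.

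Oligodendrocyte-like cells included a Klk6-led cluster (69 and 37 cells) beside the largest one (305 and 158 cells). In the Klk6-led cluster Ldhb was at 510 and 411 CPM against 94.6 and 74.7 CPM, Aldoc at 218 and 156 CPM against 59.4 and 45.9 CPM, and Gapdh at 1880 and 1751 CPM against 822 and 723 CPM. Pfkfb3 was found mostly in the larger cluster, at 27.8 and 26.7 CPM against 3.36 and 2.13 CPM, and Slc16a1 was lower in the Klk6-led cluster as well. In all 9 of 20 genes were higher there and 2 lower, beside 19.0% and 12.3% of 6948 genes.

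Other classes split too. Among monocyte/macrophage-like cells, the Plac8 and Ly6c2-led cluster (28 and 42 cells) exceeded the Spp1 and Gpnmb-led cluster (525 and 251 cells) in Slc16a3 (182 and 128 CPM against 37.9 and 34.1 CPM) and Pfkp (115 and 67.1 CPM against 27.0 and 23.5 CPM). Hilpda was lower in it, at 37.1 and 14.7 CPM against 188 and 181 CPM. In all 8 of 28 genes were higher in it and 7 lower, beside 34.4% and 18.8% of 8111 genes. In endothelial-like cells, the smaller cluster, which carried more haemoglobin RNA (erythroid markers at 5958 and 3899 CPM against 390 and 229 CPM), had less Slc16a1 (150 and 114 CPM against 377 and 387 CPM) and less Adm, Ankrd37 and Hif1a. Bnip3 alone was higher in it in both libraries, at 76.7 and 74.1 CPM against 51.6 and 37.5 CPM. In all 1 of 24 genes was higher and 7 lower, beside 11.5% and 8.33% of 7466 genes. In Schwann-like cells, the Scn7a-led cluster had less Ndrg1 (458 and 602 CPM against 1515 and 1528 CPM) and less Ldhb (346 and 304 CPM against 1107 and 972 CPM) than the larger cluster. In all 3 of 12 genes were higher and 3 lower, beside 20.1% and 23.7% of 2072 genes.

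**Figure D3:**
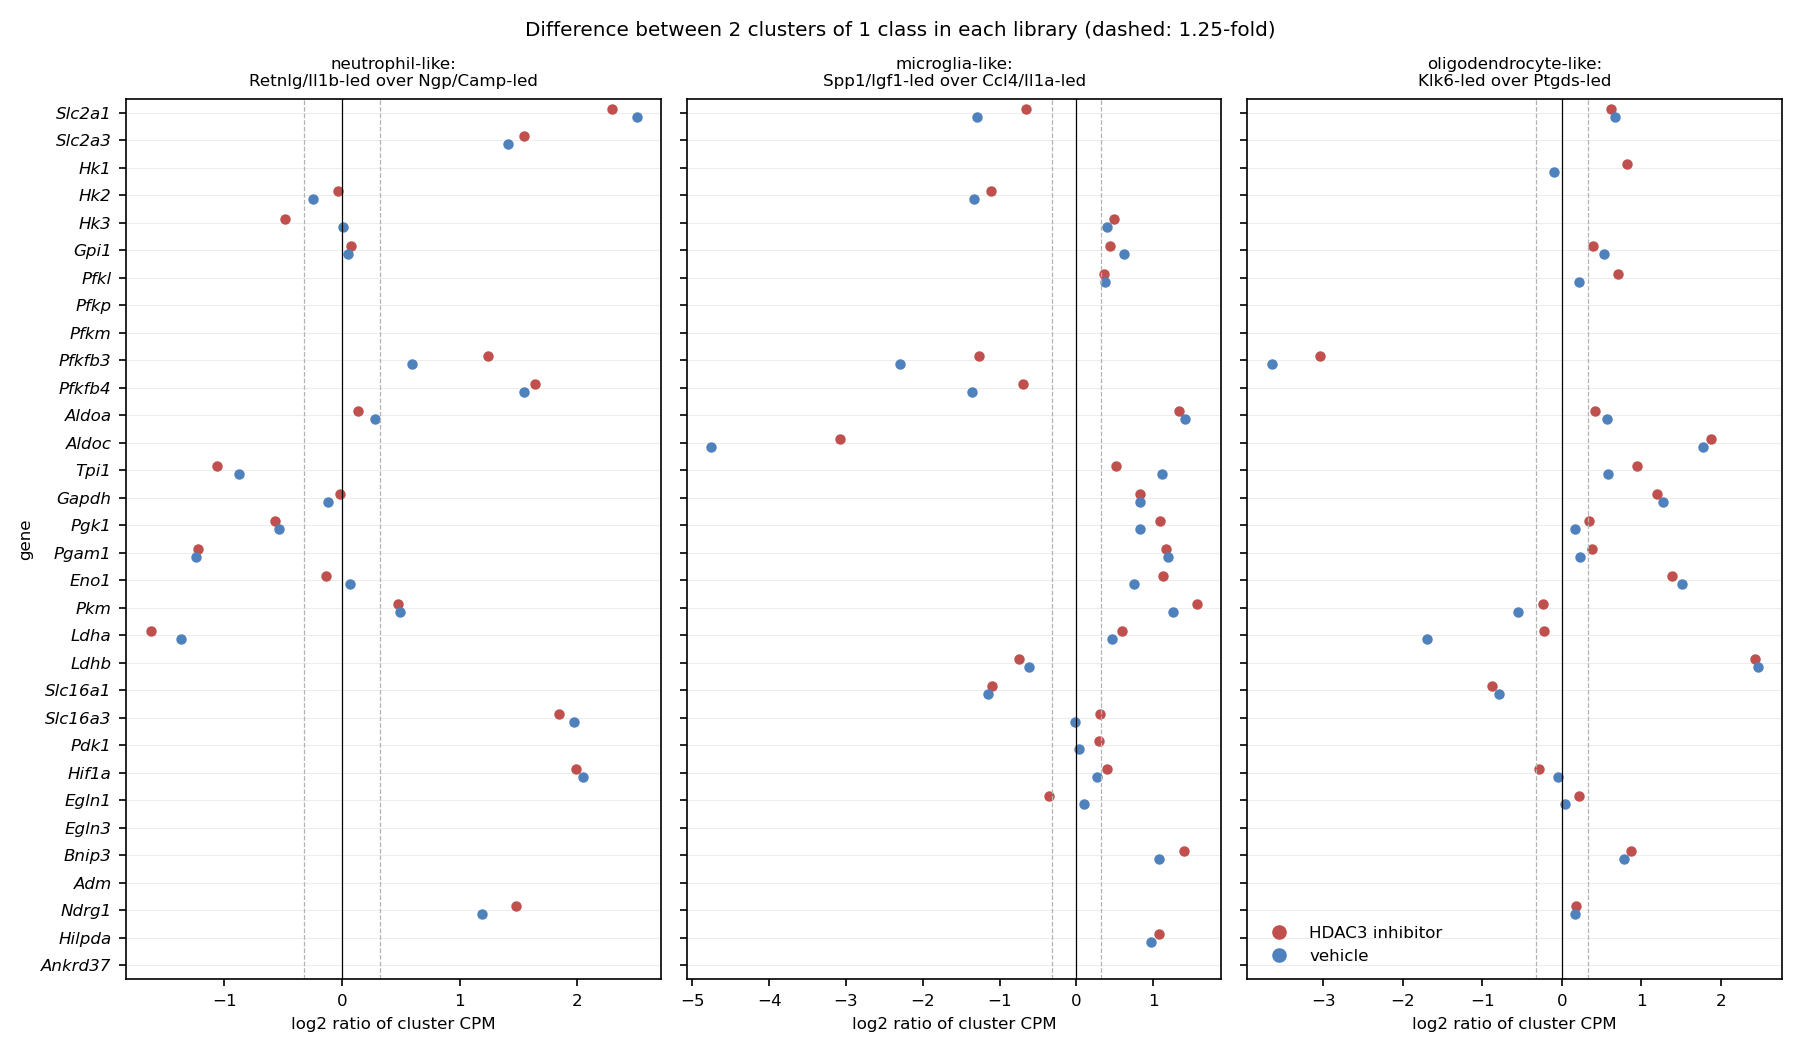
Difference between clusters inside neutrophil-like, microglia-like and oligodendrocyte-like cells. The x axis is the log2 ratio of cluster CPM (named in each panel title), rows are genes, and points are the libraries; genes with under 100 UMIs are left out. Points of the same gene lie close together in most rows, as for Slc16a3 in neutrophil-like cells (322 and 268 CPM to 1159 and 1052 CPM).

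The libraries were compared in the 6 classes that reach 100 cells on either side, for genes with at least 100 UMIs over both. This gave 126 ratios for 30 of the 32 genes, since Pfkm and Egln3 did not reach that minimum in any of these classes. With no replicates, a gene was called higher or lower where 1 library exceeded the other by at least 25%, which is the threshold meant below. Of the 126 ratios 15 were higher in the HDAC3 inhibitor library and 6 lower, 4 were past 1.5-fold, and the intervals of 7 of the 21 held 1. Of all genes with that minimum, 5.24% to 21.6% were higher and 5.94% to 11.8% lower, depending on the class. The share of all genes past 1.5-fold was not computed. Ratios below are HDAC3 inhibitor over vehicle with exact conditional 95% intervals.

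**Figure D4:**
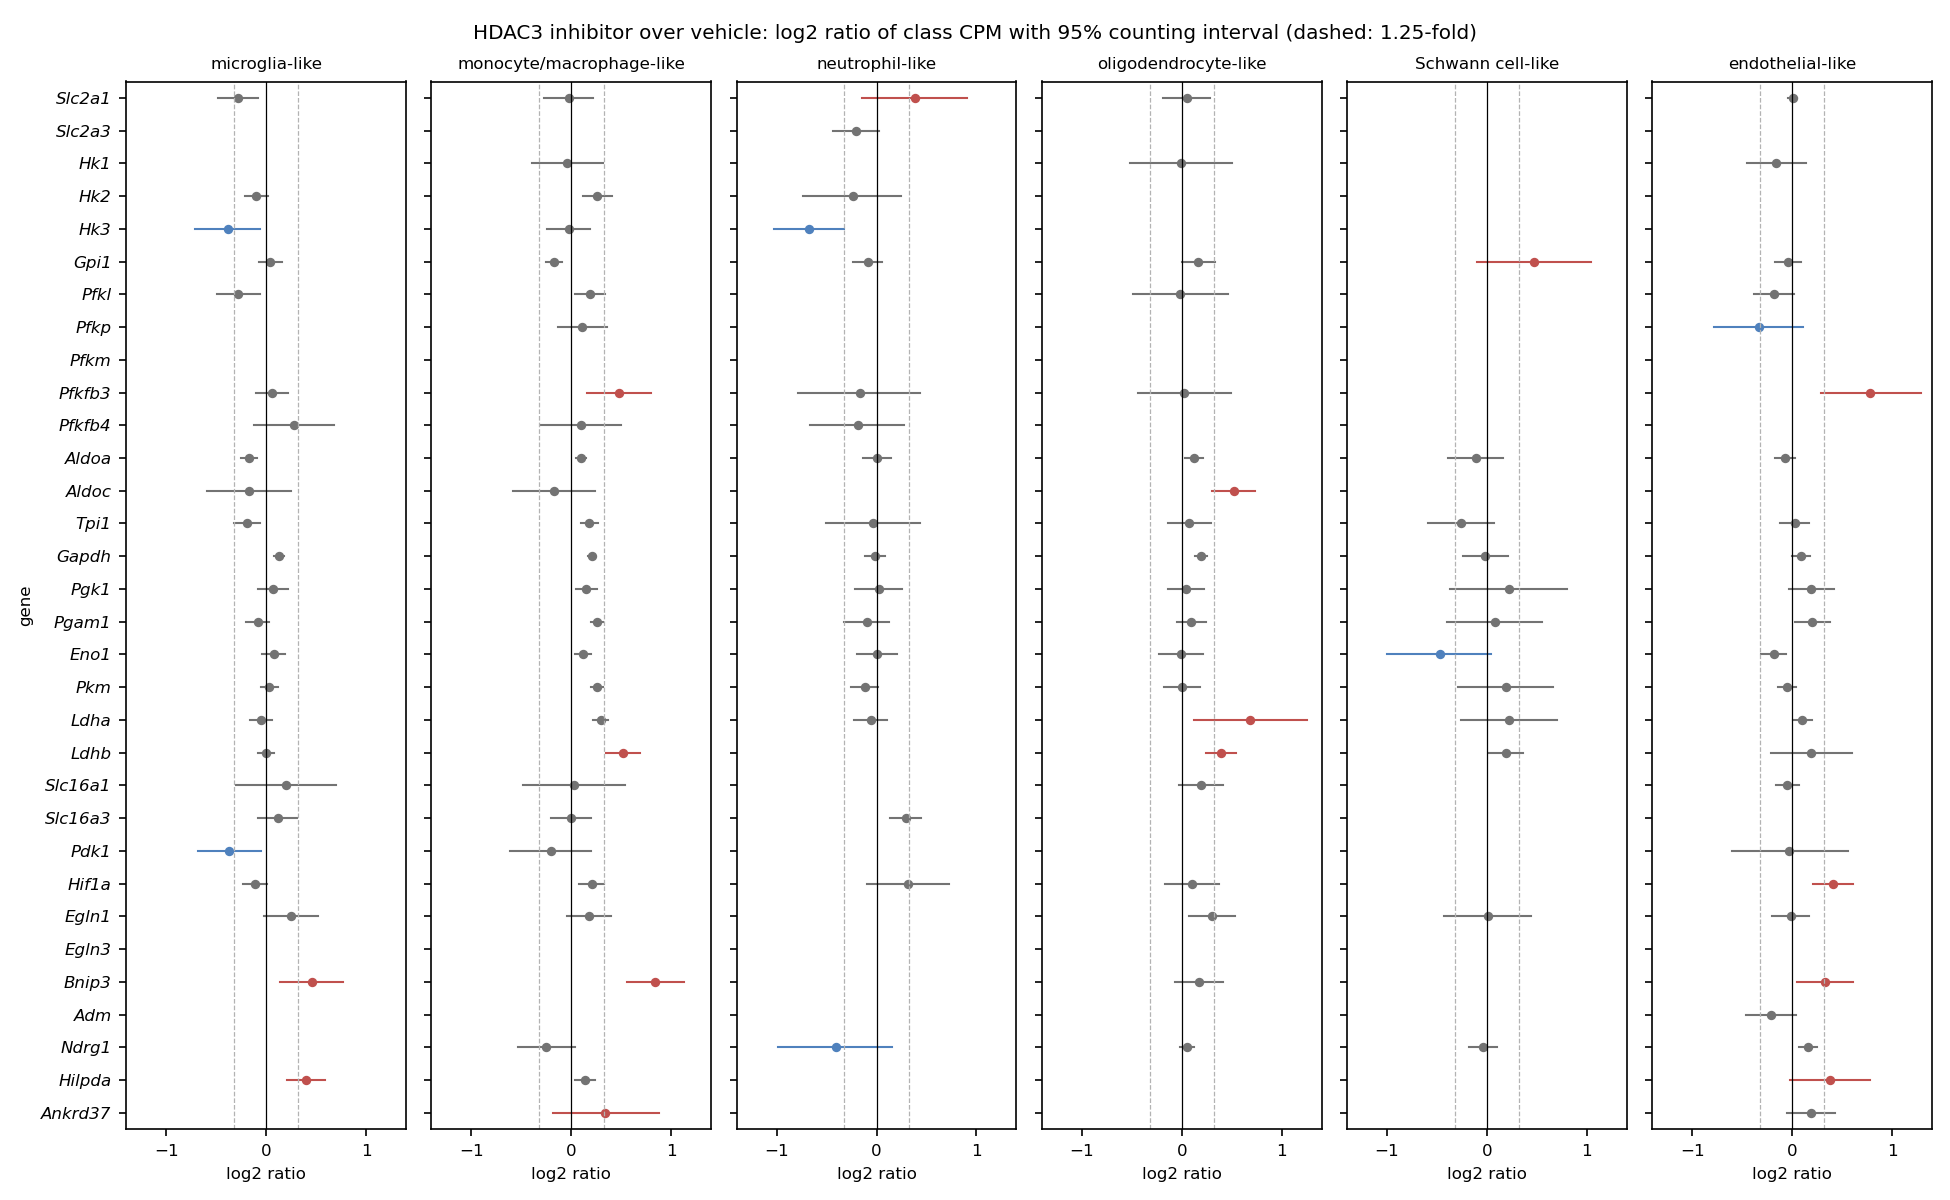
HDAC3 inhibitor over vehicle in 6 classes. The x axis is the log2 ratio of class CPM, points are genes with at least 100 UMIs, lines are 95% counting intervals, dashed lines mark the 25% threshold, red points are higher and blue points lower past it. Most points sit between the dashed lines; Bnip3 in monocyte/macrophage-like cells (ratio 1.79) and Hk3 in neutrophil-like cells (0.628) lie outside.

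Monocyte/macrophage-like cells (553 and 293 cells) leaned upward. Of 28 genes measured, 20 had a ratio above 1, 4 were higher past the threshold and 0 lower, beside 7.14% higher and 8.85% lower of 8111 genes. The median log2 ratio was 0.14, beside -0.0076 over all those genes. Bnip3 showed the largest difference of the class, at 31.6 and 17.6 CPM, a ratio of 1.79 (1.47 to 2.18). Ldhb was at 71.8 and 50.2 CPM (ratio 1.43, 1.27 to 1.61) and Pfkfb3 at 20.9 and 15 CPM (1.39, 1.12 to 1.74). Ankrd37, at 7.32 and 5.80 CPM, rested on 95 and 46 UMIs, and its interval held 1 (1.26, 0.879 to 1.84). Aldoa, Tpi1, Gapdh, Pgk1, Pgam1, Eno1, Pkm and Ldha lay inside the threshold with ratios above 1.

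Among them Ldha was at 323 and 264 CPM (ratio 1.23, 1.16 to 1.29), Pkm at 517 and 434 CPM (1.19), Pgam1 at 552 and 463 CPM (1.19) and Gapdh at 1527 and 1325 CPM (1.15). Gpi1, at 248 and 280 CPM (0.888, 0.841 to 0.938), and Aldoc, at 9.48 and 10.7 CPM (0.885, 0.666 to 1.18), were below 1. The class differs in makeup between the libraries: the Plac8 and Ly6c2-led cluster made up 5.06% and 14.3% of its cells, and 11 neutrophil markers summed to 238 and 1122 CPM, with Ly6g at 0 in the HDAC3 inhibitor library. Within the Spp1 and Gpnmb-led cluster alone Bnip3 was at 31.9 and 18.2 CPM (ratio 1.76, 1.44 to 2.16), Ldhb at 72.9 and 51.5 CPM (1.42, 1.26 to 1.60) and Pfkfb3 at 20.8 and 14.5 CPM (1.44, 1.14 to 1.82). With the clusters of the class weighted alike, Ldhb and Pfkfb3 both fell inside the threshold. Pfkfb3 also did so after thinning and with classes taken from each cell's own markers (lowest log2 ratio 0.15). With each cell thinned to 2000 UMIs, Ldhb turned to a log2 ratio of -0.14 and Ankrd37 to -0.65.

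Microglia-like cells (456 and 483 cells) had 2 genes higher and 2 lower of 24, beside 5.24% and 8.38% of 7351 genes, and a median log2 ratio of 0.015 beside -0.016. The higher genes were Hilpda, at 89.8 and 68.1 CPM (ratio 1.32, 1.16 to 1.5), and Bnip3, at 34.3 and 25 CPM (1.37, 1.10 to 1.70). Both were higher in each of the 2 clusters: Bnip3 was at 26.7 and 20.7 CPM in the larger and 70.9 and 43.6 CPM in the Spp1-led one, and Hilpda at 75.4 and 57.7 CPM and at 160 and 113 CPM. The lower genes were Hk3, at 24.4 and 31.9 CPM (0.767, 0.611 to 0.960), and Pdk1, at 26.3 and 34.0 CPM (0.775, 0.623 to 0.962). Neutrophil markers summed to 215 and 325 CPM in this class, with Ly6g of the 11 at 0 in both libraries, and 7 erythroid markers to 25.2 and 338 CPM. Their part in the differences was not tested. With cells thinned to 2000 UMIs, Hilpda, Hk3 and Pdk1 stayed past the threshold (log2 ratios of 1.14, -0.53 and -0.42) but had too few UMIs left to count, and Bnip3 was at 0.31, inside it.

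Neutrophil-like cells (176 and 213 cells) had 1 gene higher and 2 lower of 18, beside 21.6% and 8.33% of 2450 genes, and a median log2 ratio of -0.073 beside 0.093. Hk3 was lower, at 84.7 and 135 CPM from 97 and 236 UMIs, a ratio of 0.628 (0.490 to 0.798). It was lower in both clusters, at 91.4 and 135 CPM in the granule-gene cluster and 65.1 and 136 CPM in the Il1b-led one. Slc2a1 was higher (51.5 and 39.5 CPM, ratio 1.31, 0.907 to 1.88) and Ndrg1 lower (35.8 and 47.5 CPM, 0.754, 0.506 to 1.11), both with intervals that held 1. Slc16a3 lay just inside the threshold at 535 and 437 CPM (1.23, 1.10 to 1.36). Slc2a1, Slc16a3 and Hif1a are genes of the Il1b-led cluster, which made up 57.4% and 42.7% of the class. Within clusters Slc2a1 was at 25.8 and 19.7 CPM in the granule-gene cluster and 127 and 112 CPM in the Il1b-led one, and with the clusters weighted alike its log2 ratio was 0.22, inside the threshold. The 7 erythroid markers summed to 33.2 and 1729 CPM in these cells, and their part in these ratios was not tested.

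Endothelial-like cells (418 and 312 cells) had 4 genes higher and 1 lower of 24, beside 6.6% and 6.19% of 7466 genes, and a median log2 ratio of 0.017 beside 0.0079. Pfkfb3, which endothelium is known to use when vessels sprout, was at 23.6 and 13.7 CPM (ratio 1.72, 1.22 to 2.45), and 1 cell held 25.9% of its UMIs in the HDAC3 inhibitor library. Without the cell of each library that held most, its log2 ratio was 0.48, still past the threshold. Pfkfb3 was found in 11.7% and 10.9% of the cells, and the 5% of cells with most of it held 74.1% and 64.7% of its UMIs. Hif1a was at 119 and 89.6 CPM (1.33, 1.16 to 1.53). The larger cluster carried that difference, with 149 and 99.3 CPM (1.51, 1.29 to 1.76), while the smaller had 63.1 and 65.8 CPM (0.960, 0.702 to 1.32), and the difference between the clusters was not tested.

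Bnip3 was at 60.5 and 48.1 CPM in endothelial-like cells (1.26, 1.04 to 1.52). Hilpda (30.4 and 23.4 CPM, 1.30, 0.985 to 1.72) and Pfkp (18.8 and 23.7 CPM, 0.793, 0.583 to 1.08) had intervals that held 1, and with cells thinned to 2000 UMIs they turned to log2 ratios of -0.80 and 0.27. Slc2a1, at 1932 and 1922 CPM, had a ratio of 1.01 (0.974 to 1.04). In this class 9 mural markers, none at 0, summed to 307 and 109.7 CPM, and 7 erythroid markers to 2355 and 1295 CPM, and their part was not tested.

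Oligodendrocyte-like cells (394 and 209 cells) had 3 genes higher and 0 lower of 20, beside 6.86% and 5.94% of 6986 genes. In all 17 of the 20 ratios were above 1 with a median log2 ratio of 0.097, beside 0.015. Aldoc was at 113 and 78.6 CPM (1.43, 1.24 to 1.67) and Ldhb at 225 and 171 CPM (1.31, 1.19 to 1.45). Both genes mark the Klk6-led cluster, which made up 17.5% and 17.7% of the class. In the largest cluster alone Aldoc was at 59.4 and 45.9 CPM (1.29, 1.02 to 1.65) and Ldhb at 94.6 and 74.7 CPM (1.27, 1.05 to 1.53). Aldoc fell inside the threshold with clusters weighted alike and with cells thinned to 2000 UMIs (lowest log2 ratio 0.13). Ldhb fell inside it with clusters weighted alike and with cells weighted alike (lowest 0.012). Ldha was at 18.6 and 11.6 CPM (1.60, 1.09 to 2.39) from 92 and 39 UMIs, and 1 cell held 19.6% of the former. The 10 monocyte/macrophage markers summed to 464 and 129 CPM in this class, with Ccr2, Ly6c2 and Plac8 at 0 in vehicle, and its smallest cluster (20 and 14 cells) held them at 10705 and 649 CPM. The part of these cells in the ratios was not tested. With each cell weighted alike, Ldha had a log2 ratio of -0.059.

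Schwann-like cells (159 and 217 cells), the shallowest class compared, had 1 gene higher and 1 lower of 12, beside 14.6% and 11.8% of 2072 genes, and a median log2 ratio of 0.044 beside 0.037. Gpi1 was at 99.4 and 71.9 CPM (1.38, 0.931 to 2.06) and Eno1 at 90.2 and 125 CPM (0.721, 0.50 to 1.03), both with intervals that held 1. Ndrg1, the most abundant of the genes there, was at 1307 and 1342 CPM (0.974, 0.884 to 1.07). In the same cells 11 of 15 dissociation and stress genes were lower and 0 higher, beside 11.8% and 14.6% of all genes. In monocyte/macrophage-like cells 5 of 15 were lower and 1 higher, beside 8.85% and 7.14%. Neutrophil-like cells had 1 of 9 lower and 3 higher, beside 8.33% and 21.6%. The other 3 classes had 1 to 3 lower and 0 to 2 higher, beside 5.94% to 8.38% and 5.24% to 6.86% of all genes. The part of these genes' differences in the results was not tested. In Schwann-like cells erythroid markers summed to 27.6 and 969 CPM.

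Bnip3 was the most repeated difference: its ratio was above 1 in all 4 classes where it was measured and past the threshold in 3 (microglia-like, monocyte/macrophage-like and endothelial-like cells). Hilpda was past the threshold in 2 of 3 classes, Pfkfb3 in 2 of 5 and Ldhb in 2 of 5, all higher, and Hk3 was lower in 2 of 3. The share of all genes past it the same way in as many classes was not computed, so these counts do not set the genes apart. In endothelial-like cells the interval of Hilpda held 1. Bnip3 there fell inside the threshold with the stricter filter, with clusters weighted alike and after thinning. Pgk1 had a ratio above 1 in 6 of 6 classes but was past the threshold in 0. Conversely Aldoa, Tpi1, Gapdh, Pgam1 and Pkm, each compared in 6 classes, were past the threshold in 0, with ratios on both sides of 1. Of the 21 ratios past the threshold, 4 stayed past it under all 12 alternative settings tried: Bnip3 in monocyte/macrophage-like cells, Pfkfb3 and Hif1a in endothelial-like cells and Hk3 in neutrophil-like cells. The others fell inside it under at least 1. The classes of a library share 1 preparation, so they are not replicates of each other.

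**Figure D5:**
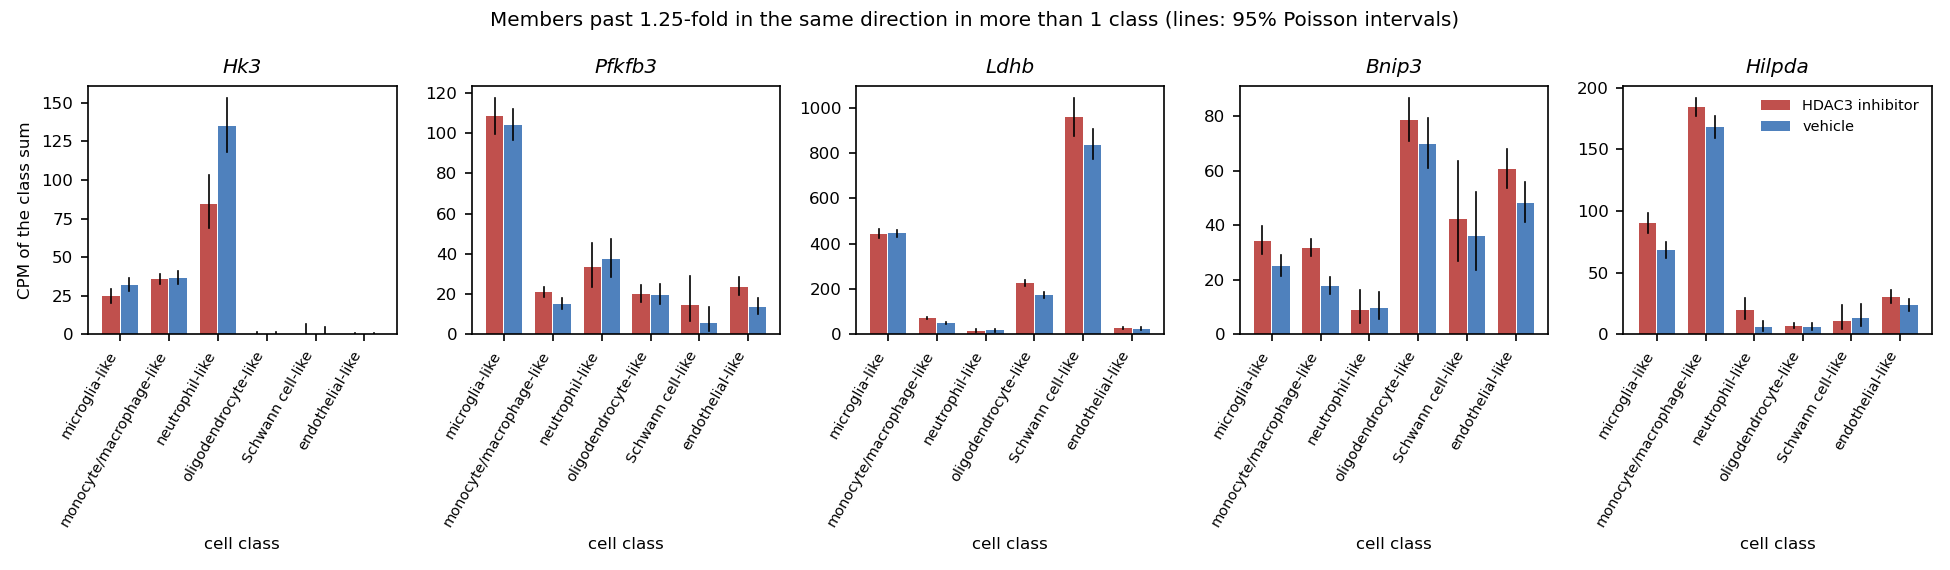
Levels of the 5 genes past the threshold in the same direction in more than 1 class. The y axis is CPM of the class sum, bars are the libraries (red HDAC3 inhibitor, blue vehicle), and lines are 95% Poisson intervals. Hk3 is lower in the HDAC3 inhibitor library in neutrophil-like cells (84.7 and 135 CPM) and Bnip3 higher in monocyte/macrophage-like cells (31.6 and 17.6 CPM).

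A further list of 64 glycolysis, pyruvate and hypoxia genes had most differences in monocyte/macrophage-like cells, where 10 of 42 measured were higher and 3 lower, beside 7.14% and 8.85% of all genes. The most abundant of the 10 was Mif, a cytokine that HIF can raise, at 462 and 356 CPM (1.30, 1.24 to 1.36). Higd1a, a mitochondrial protein of the hypoxia response, was at 76.8 and 57.2 CPM (1.34, 1.2 to 1.5). P4ha1, a collagen prolyl hydroxylase, was at 65.7 and 51.8 CPM (1.27), and Fam162a, Ddit4, Cited2, Pgm2, Slc2a6 and Hif1an were also among them. The lower genes were Gpd2 of the glycerol phosphate shuttle, at 11.2 and 16.6 CPM (0.672, 0.527 to 0.857), G6pdx of the pentose phosphate pathway and the nuclear receptor gene Rora. Apart from Mif these were named after their values were seen.

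In the other classes few genes of that list were past the threshold. In microglia-like cells 0 of 39 were higher and 4 lower, a share near that of all genes lower there (8.38%). Among the 4 was Cited2, a transcriptional partner that limits HIF, at 173 and 232 CPM (0.747, 0.687 to 0.811), opposite in direction to monocyte/macrophage-like cells (49.8 and 38.9 CPM, 1.28). The difference between these classes was not tested, and Cited2 was named after its values were seen. In oligodendrocyte-like cells 2 of 32 were higher, with Pgm2, a phosphoglucomutase, at 16.2 and 9.82 CPM (1.64, 1.08 to 2.55), beside 6.86% of all genes, and 2 lower, beside 5.94%, with Dlat of the pyruvate dehydrogenase complex at 15.5 and 25.3 CPM (0.615, 0.446 to 0.847). In Schwann-like cells 0 of 11 were higher and 1 lower, beside 14.6% and 11.8% of all genes. The lower gene was Ddit4, an inhibitor of mTORC1 signalling, at 93.9 and 170 CPM (0.551, 0.390 to 0.768). Endothelial-like cells had 0 of 35 higher and 1 lower, beside 6.6% and 6.19%, and neutrophil-like cells 1 of 16 higher and 2 lower, beside 21.6% and 8.33%.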

How the data were processed

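Filtered 10x matrices of UMI counts per barcode and gene were deposited by the authors, who used Cell Ranger 3.0.2 per the file headers. The submitters' processing notes also list Seurat and the mm10 build. Barcodes were kept at 500 or more genes, 1000 or more UMIs and no more than 15% mitochondrial UMIs (448 of 3423 and 353 of 2523 failed). Scrublet in scanpy 1.11.5 marked 21 and 6 doublets, a low yield, which were left out. Counts scaled to 10000 per cell were log-transformed, reduced to 30 principal components of 2000 variable genes with no integration, and clustered with leidenalg 0.10.2 at resolution 1. Clusters were named from marker lists, with naming thresholds set after the clusters were seen. UMIs were summed per library and class, with exact Poisson, conditional binomial and Clopper-Pearson 95% intervals, and the calculation was tested on simulated data. A count of 0 allows 3 UMIs. The libraries hold 38957752 and 29726813 UMIs, and genes under 100 UMIs in a class gave no ratio. Named beyond the 32 genes are those of the further list past 1.5-fold or among its 3 most abundant, with exceptions marked and 1 gene not reported here. Members and lists were chosen with earlier results of these data known. Promoters are from RefSeq.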

Additional observations from a re-analysis of the deposited data

How the results depend on the processing

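Each ratio was recomputed with a stricter cell filter, Leiden resolution 2, clustering without these genes, doublets kept, the largest cluster of each class alone, clusters of a class weighted alike, cells weighted alike, cells thinned to 2000 UMIs, classes from each cell's own markers, another total, without the cell holding most UMIs and, added after seeing the data, without the barcodes shared by the libraries. Of the recomputed member ratios 1391 moved less than counting error, 113 moved more and 8 turned. Isoenzyme shares were recomputed too, and 889 stayed within counting error while 123 moved more. With doublets kept, Ldhb took 17.8% and 14.3% of its family in neutrophil-like cells, and Slc2a3 71.4% in the HDAC3 inhibitor library. Bnip3 in monocyte/macrophage-like cells, Hif1a and Pfkfb3 in endothelial-like cells and Hk3 in neutrophil-like cells stayed past the 25% threshold in all 12 settings for the ratios. No minimum of UMIs was applied to single genes in these settings. The reversals in log2 were Pfkp (0.27) and Hilpda (-0.80) in endothelial-like cells, Ldhb (-0.14) and Ankrd37 (-0.65) in monocyte/macrophage-like cells and Ndrg1 (0.019) in neutrophil-like cells, all after thinning, Ankrd37 also with own markers (-0.069) and clusters weighted alike (-0.12), and Ldha in oligodendrocyte-like cells (-0.059) with cells weighted alike. The cause was not tested. The median of the 32 genes lay above that of all genes in 13 of 13 settings in monocyte/macrophage-like cells (0.11 to 0.21) and in 0 of 13 in neutrophil-like cells.

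Counts of genes past the threshold changed as follows. The share of all genes past it was not computed under these settings, so the counts do not set the list apart from other genes. At a threshold of 1.5-fold the counts were 0 in Schwann-like and microglia-like cells and 1 in each of endothelial-like, monocyte/macrophage-like, neutrophil-like and oligodendrocyte-like cells. With a minimum of 500 UMIs fewer genes were measured, and they were 0 in Schwann-like and neutrophil-like, 1 in endothelial-like and microglia-like and 2 in monocyte/macrophage-like cells. With a minimum of 20 UMIs they were 8 in Schwann-like and microglia-like and 6 in neutrophil-like and oligodendrocyte-like cells. After thinning, which left 5, 16, 16 and 13 genes measured, they were 1 in Schwann-like, 3 in endothelial-like, 0 in microglia-like and 1 in monocyte/macrophage-like cells. Gpi1 and Eno1 in Schwann-like and Hk3, Pdk1 and Hilpda in microglia-like cells kept ratios past the threshold after thinning. With clusters weighted alike they were 4 in Schwann-like, 9 in monocyte/macrophage-like and 5 in oligodendrocyte-like cells. With cells weighted alike they were 1 in Schwann-like and oligodendrocyte-like cells, and in Schwann-like cells 1 with the stricter filter or the largest cluster alone. With doublets kept, a further cluster joined the neutrophil-like class and the count was 12 (8 higher, 4 lower). With the clusters of the clustering without these genes, a contrast added after seeing the data, 11 of 12 neutrophil, 18 of 20 microglia and 11 of 11 oligodendrocyte differences between clusters recurred. Classes under 100 cells in a library gave no ratio at this depth. No paired analysis was possible because each group has 1 library.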

Other observations

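Mural-like cells, which were too few in vehicle for a comparison of the libraries, held an Acta2 and Tagln-led cluster (36 and 29 cells) beside one led by Vtn and Rgs5 (100 and 58 cells). Eno1 was at 290 and 342 CPM in the Acta2-led cluster against 156 and 185 CPM, and Gapdh at 1253 and 1149.8 CPM against 909.6 and 909.6 CPM. Tpi1 and Ldhb were higher in it too, whereas Aldoa was lower, at 673 and 748 CPM against 978 and 967 CPM. Of 13 genes measured 4 were higher and 1 lower in both libraries, beside 19.9% and 27.0% of 2323 genes. The Acta2-led cluster is the deeper, with medians of 8837.5 and 9100 UMIs against 4526 and 5488.5. These are differences between clusters drawn from the same cells, given as a description.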
